A study of Mus musculus with 10 samples.

Results

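The SLC25 family of mitochondrial carriers was followed in 10 RNA-seq libraries of mouse subcutaneous tumours. Its members were taken by symbol alone, as the genes named Slc25a plus a number, a rule that uses no measured value. There were 47 such genes among the 18223 of the deposited table, spread over 19 chromosomes. Of these, 39 had enough reads to be tested.

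SLC25 proteins sit for the most part in the inner mitochondrial membrane, where each exchanges or imports a small metabolite that cannot cross the lipid bilayer: ADP and ATP, phosphate, citrate, aspartate, acylcarnitines, coenzymes or iron. They are encoded in the nucleus, made in the cytosol and inserted into the membrane by a dedicated import route. In tumours the family is known for feeding the respiratory chain, exporting citrate for fatty acid synthesis, carrying aspartate for nucleotide synthesis and bringing iron to heme and iron-sulfur cluster assembly.

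The tumours were subcutaneous MC38 tumours. MC38 is a colon adenocarcinoma line of the mouse that is used because it grows in mice with an intact immune system. High tumour burden (HTB) had 5 libraries whose treatment label gives 2000000 over 14 days, and low tumour burden (LTB) had 5 whose label gives 500000 over the same 14 days. These numbers were read as cells injected, although the labels name no unit, no measured tumour size, and no sex, age or strain of host. All libraries came from whole tumour and one cell line, and the labels do not say that each came from a separate animal, so p-values below measure the spread between these libraries.

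HTB libraries totalled 24884292 to 27185168 estimated reads each, and LTB libraries 23070917 to 26880191. HTB replicate 2 and, less so, LTB replicate 1 stood apart. HTB replicate 2 had a summed level of 15784 CPM (counts scaled to the library total) over 15 skeletal muscle markers, while the other HTB libraries had 11.2 to 80.9 CPM and LTB had 7.79 to 11.3 CPM. Its 9 adipocyte markers summed to 5284 CPM, while the other HTB libraries had 20.9 to 24.8 CPM and LTB had 10.7 to 35.3 CPM. LTB replicate 1 differed from the other LTB libraries by a chi-square of 52.8 to 81.8 per gene, against 13.7 to 28.4 among those, and it was the highest LTB library for 46.2% of carriers, against 31.8% of all tested genes. Calls gained or lost without HTB replicate 2 are given beside each result, and changes of sign of carriers without it are given as well. The 6 epithelial markers listed for the labelled cell line were low throughout, with sums of 2.78 to 7.03 CPM in HTB, against 6.46 to 16.2 CPM in LTB, and Krt18 had no read in LTB. In bulk tumour RNA, fewer cells of a type and less RNA per cell cannot be told apart.

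Few carriers differed between the groups. At an adjusted p under 0.05 in edgeR's quasi-likelihood test over 13469 genes, 4 of the 39 tested carriers (10.3%) were called, close to the 11.4% of all tested genes. Slc25a42, Slc25a47 and Slc25a51 were higher in HTB, which is 7.69% of the carriers against 3.91% of all genes. Slc25a37 was lower in HTB, which is 2.56% of the carriers against 7.51% of all genes. The HTB and LTB libraries did not overlap for the same 4 carriers (10.3%), while 11.7% of all tested genes did not overlap. HTB lay wholly above LTB for 4.68% of all genes and wholly below for 7.06%. The DESeq2 Wald test called 5 carriers (12.8%) among 18% of all genes, adding Slc25a27. DESeq2 gave Slc25a23 no adjusted p, so the 39 carriers behind this share are not quite the same 39.

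Most carriers moved little. The median log2 fold change of HTB over LTB was 0.05 over the 39 carriers and 0.02 over all tested genes, and the median size regardless of sign was 0.14 for carriers and 0.16 for all genes. For 30 carriers (76.9%) the fitted difference was under 0.25 on the log2 scale, against 64.8% of all genes. With HTB replicate 2 left out, 6 of 39 carriers were called (15.4%) among 22.4% of all genes: Slc25a27 joined those higher in HTB, which then held 4 carriers (10.3%) among 9.77% of all genes, and Slc25a3 those lower, with 2 carriers (5.13%) among 12.7%.

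**Figure D1:**
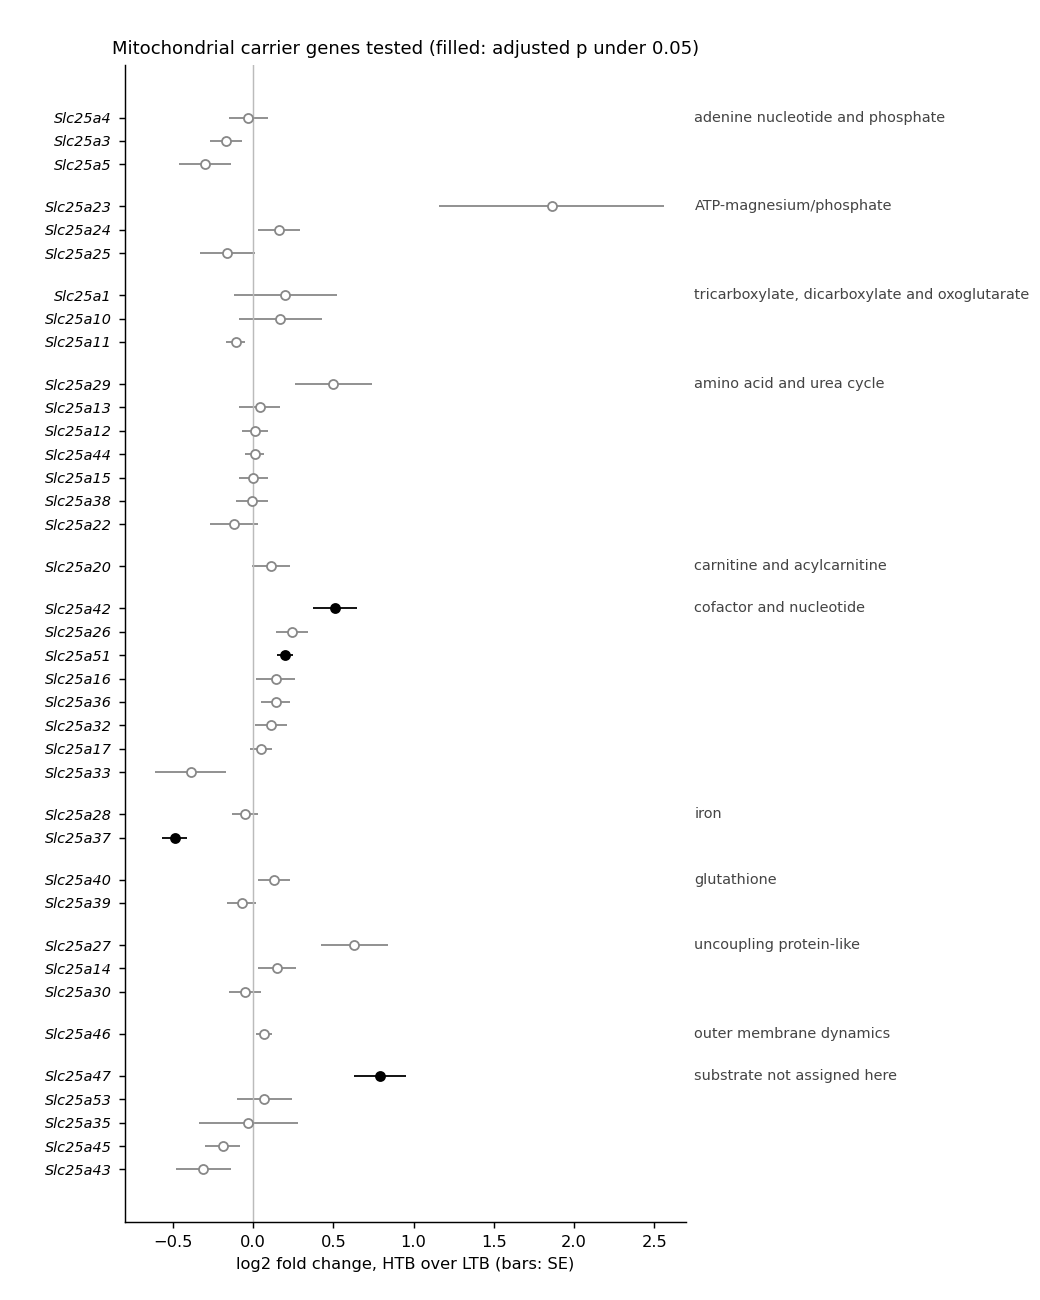
Log2 fold change of HTB over LTB (x axis) for 38 of the 39 tested carriers, grouped by transported substrate, with bars of 1 standard error from the edgeR fit and filled points for an adjusted p under 0.05. Most points lie near 0, the filled points are Slc25a37 on the left and Slc25a51, Slc25a42 and Slc25a47 on the right, and Slc25a23 has the widest bar.

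The carriers that exchange ADP for ATP and import phosphate supply the ATP synthase, and they were among the most abundant of the family. Slc25a3, the phosphate carrier, had 389, 506, 379, 347 and 358 CPM in HTB replicates 1 to 5, against 467, 418, 440, 448 and 447 CPM in LTB. HTB replicate 2 was above every LTB library and the other 4 HTB libraries were below every one. The log2 fold change was -0.17 ± 0.10 (SE, n = 5 each, edgeR adjusted p = 0.287) with all libraries and -0.27 ± 0.06 (edgeR adjusted p = 0.0132) without HTB replicate 2.

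Slc25a5, the ADP/ATP carrier typical of dividing cells, had 208, 307, 243, 223 and 183 CPM in HTB and 380, 267, 308, 258 and 226 CPM in LTB. The groups overlapped, with a log2 fold change of -0.30 ± 0.16 (SE, n = 5 each, edgeR adjusted p = 0.238). Outside HTB replicate 2, HTB libraries had 183 to 243 CPM, and of these replicate 3 alone was above the lowest LTB library. Without HTB replicate 2 the log2 fold change of Slc25a5 was -0.42 ± 0.14, still not called. Slc25a4, the isoform of heart and skeletal muscle, had 263, 310, 252, 232 and 235 CPM in HTB and 309, 257, 264, 283 and 204 CPM in LTB. Its fold change was -0.03 ± 0.12 on the log2 scale, with a 95% interval of -0.28 to 0.23. The cell-cycle markers summed to 1652 to 2054 CPM in HTB, against 1885 to 2331 CPM in LTB. Of the 8 genes, 1 (Pcna) was called lower in HTB, against 7.51% of all tested genes. With HTB replicate 2 left out, when 12.7% of all genes were called lower, 4 of the 8 markers were (Pcna, Rrm2, Mcm5 and Cdk1). Their part in the levels of Slc25a5 was not tested.

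Set per transcript length, these carriers led, although by CPM Slc25a24 was above Slc25a5 in some libraries. In the authors' deposited table, whose group means behave as RPKM (reads scaled to transcript length and depth), Slc25a3 stood at 286 in HTB and 318 in LTB, Slc25a4 at 258 in HTB and 261 in LTB, and Slc25a5 at 196 in HTB and 240 in LTB. Slc25a39 followed there at 109 in HTB and 113 in LTB, ahead of Slc25a24 at 70 in HTB and 61.8 in LTB. Together Slc25a3, Slc25a4 and Slc25a5 made up 36 ± 1.76% of all carrier reads in HTB and 39.2 ± 2.68% in LTB (SD, n = 5 each). The testis-type ADP/ATP carrier Slc25a31 had 9 reads over all 10 libraries.

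All 47 carriers summed to 2333, 2928, 2404, 2340 and 2265 CPM in HTB replicates 1 to 5, against 2681, 2443, 2552, 2526 and 2460 CPM in LTB. The means were 2454 ± 270 CPM in HTB and 2532 ± 94.7 CPM in LTB (SD, n = 5 each), a difference smaller than the spread in HTB. The sums without HTB replicate 2 were 2265 to 2404 CPM in HTB, below each LTB library. Without Slc25a3, Slc25a4 and Slc25a5 the remaining carriers summed to 1473 to 1806 CPM in HTB, against 1501 to 1584 CPM in LTB, and the groups overlapped.

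Slc25a37 encodes mitoferrin 1, the importer of iron into mitochondria that developing red cells depend on, and Slc25a28 encodes mitoferrin 2, its widely expressed relative. Slc25a37 (NCBI gene 67712) lies on the minus strand at chr14:69241848-69285112 in GENCODE M21 on GRCm38. Its level was 138, 146, 117, 148 and 124 CPM in HTB, against 197, 167, 195, 194 and 192 CPM in LTB. Every HTB library was below every LTB library. The means were 135 ± 13.7 CPM in HTB and 189 ± 12.5 CPM in LTB (SD, n = 5 each). The log2 fold change was -0.49 ± 0.08 (SE), with an edgeR adjusted p of 0.0054. The value without HTB replicate 2 was -0.52 ± 0.08, and the call held in 18 of 18 alternatives. Annotated antisense transcripts overlap the gene, and the sources used here do not say whether counting used strand.

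Reads of some carriers may be shared with other genes. In GENCODE M21, 10 of the 47 overlap another protein-coding gene (Slc25a2, Slc25a11, Slc25a18, Slc25a21, Slc25a23, Slc25a25, Slc25a26, Slc25a35, Slc25a46 and Slc25a53), so their values are uncertain to that extent. The deposited counts of 6 carriers, among them Slc25a37, Slc25a42 and Slc25a51, include fractional values.

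Slc25a28 stayed close between groups, with 37.4, 37.7, 37, 33.8 and 39.1 CPM in HTB and 42.5, 37.3, 36.5, 42.2 and 32.6 CPM in LTB. Its log2 fold change was -0.05 ± 0.08, with a 95% interval of -0.23 to 0.13. A ratio of 2 carriers within a library does not depend on how libraries are scaled, and 4 such ratios were compared by exact two-sided permutation tests whose smallest possible p is 0.00794. The log2 ratio of Slc25a37 to Slc25a28 reads averaged 1.86 ± 0.20 in HTB and 2.31 ± 0.17 in LTB (SD, n = 5 each), a difference of -0.45 (exact p = 0.00794, adjusted over the 4 ratios 0.0317). HTB libraries lay between 1.66 and 2.13 and LTB libraries between 2.16 and 2.56. This ratio rests on the same Slc25a37 reads as the fold change above and is not separate support for it. With any single library other than LTB replicate 4 left out, the difference was -0.52 to -0.39 and the adjusted p of the exact test was 0.0635.

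**Figure D2:**
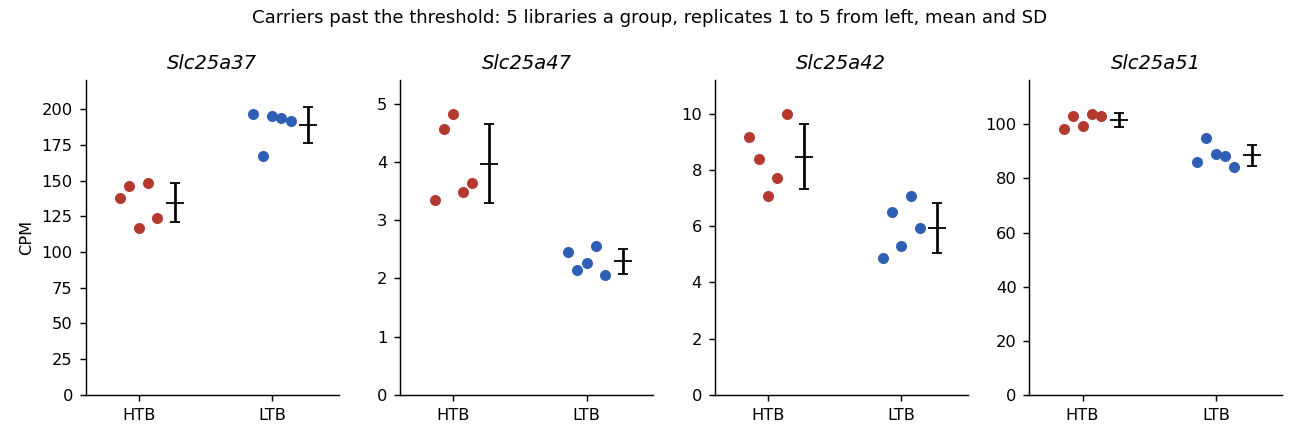
Level in CPM (y axes from 0) of the 4 carriers past the threshold, with 1 point per library, replicates 1 to 5 from left, and mean and SD beside them. HTB lies below LTB for Slc25a37 and above LTB for Slc25a47, Slc25a42 and Slc25a51, with no overlap, although the lowest HTB and highest LTB libraries of Slc25a42 both read 7.06 CPM at this rounding.

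Markers of several cell types also differed between the groups. Erythroid markers summed to 47.9 to 71.3 CPM in HTB outside replicate 2, reached 309 CPM in that library, and were at 15.8 to 32 CPM in LTB. Whether or not it was included, 5 of the 5 tested were higher in HTB, the opposite direction to Slc25a37, and the log2 fold change of the globin gene Hba-a1 was 2.27 with it and 1.40 without it. Of all tested genes, 3.91% were higher and 7.51% lower, and without HTB replicate 2 the shares were 9.77% and 12.7%. Among them Alas2, the heme synthesis enzyme of red cells, had 0.586 to 3.44 CPM in HTB, against 0.114 to 0.584 CPM in LTB, while the red cell membrane genes Epb42 and Slc4a1 stayed at or under 0.124 CPM in every library. Macrophage markers summed to 795 to 1354 CPM in HTB, against 1262 to 2037 CPM in LTB outside replicate 1 and 2479 CPM in LTB replicate 1, with 4 of 10 lower and 3 of 10 without HTB replicate 2. T cell markers summed to 16.7 to 45 CPM in HTB, against 45 to 95.6 CPM in LTB outside replicate 1 and 212 CPM in LTB replicate 1, with 6 of 8 lower and 8 of 8 without HTB replicate 2. The part of these cells in the level of Slc25a37, or of the other carriers and pathway genes, was not tested.

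Of 7 tested genes that use mitochondrial iron, 1 was called, against 11.4% of all tested genes. Fech, which inserts iron into heme, had 87.3 to 101 CPM in HTB, against 57.9 to 78.3 CPM in LTB, a log2 fold change of 0.37 ± 0.08 (SE, n = 5 each, edgeR adjusted p = 0.0199), opposite in sign to that of Slc25a37. The other two of smallest p in the list did not pass: Abcb10, a transporter known to bind mitoferrin 1 in red cell precursors, at -0.12 ± 0.06 (edgeR adjusted p = 0.213), and Alas1, the heme synthesis enzyme of other tissues, at -0.36 ± 0.22 (edgeR adjusted p = 0.303). Without HTB replicate 2, Alas1 was also called lower, at -0.66 (edgeR adjusted p = 0.00197), as were 12.7% of all genes.

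Of the 9 tested carriers of cofactors and nucleotides, 2 were called higher in HTB, against 3.91% of all tested genes. Both calls ended when certain single libraries were left out, and no test was made for the class. Slc25a51 imports NAD into the matrix. It had 98.4, 103, 99.5, 104 and 103 CPM in HTB and 86.1, 94.8, 89, 88.4 and 84.1 CPM in LTB. HTB libraries were all above LTB libraries, but the difference was small, 102 ± 2.4 CPM in HTB and 88.5 ± 4.03 CPM in LTB (SD, n = 5 each). The log2 fold change was 0.20 ± 0.05 (SE, edgeR adjusted p = 0.0273). The gene (NCBI 230125) lies on the minus strand at chr4:45395923-45408766, and its call held in 11 of 18 alternatives. Leaving out HTB replicate 3, 4 or 5 or LTB replicate 3, 4 or 5 ended it, with an adjusted p of up to 0.101 and log2 fold changes of 0.18 to 0.22.

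Slc25a42 carries coenzyme A into mitochondria. Its level was 9.18, 8.38, 7.06, 7.72 and 10 CPM in HTB, against 4.88, 6.5, 5.3, 7.06 and 5.92 CPM in LTB, so that the lowest HTB library barely cleared the highest LTB library. The log2 fold change was 0.51 ± 0.14 (SE, n = 5 each, edgeR adjusted p = 0.0445). This call, for the gene (NCBI 73095) on the minus strand at chr8:70184340-70212305, held in 7 of 18 alternatives. It ended, with an adjusted p of up to 0.107, when any single library other than HTB replicate 2 or LTB replicate 4 was left out, while the log2 fold change stayed between 0.45 and 0.58.

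The other 7 carriers of this class did not pass. Closest to the threshold was Slc25a26, which imports S-adenosylmethionine, at a log2 fold change of 0.24 ± 0.10 (edgeR adjusted p = 0.146). Slc25a16, linked to coenzyme A, was at 0.14, Slc25a36, a pyrimidine nucleotide carrier, at 0.14, Slc25a32, the folate and FAD carrier, at 0.11, and the peroxisomal cofactor carrier Slc25a17 at 0.05. Slc25a33, the other pyrimidine nucleotide carrier, was at -0.39 ± 0.22 with 11.5 to 16 CPM in HTB, against 11.2 to 25.9 CPM in LTB.

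Slc25a47, a carrier known in mouse mainly from liver and with no substrate assigned here, had the largest fold change of the 4 called. It had 3.35, 4.56, 4.83, 3.48 and 3.63 CPM in HTB, against 2.46, 2.14, 2.27, 2.56 and 2.05 CPM in LTB. The levels were low but the groups were clearly apart, with a log2 fold change of 0.79 ± 0.16 (SE, n = 5 each, edgeR adjusted p = 0.0141) that held in 17 of 18 alternatives. Next to it, at a gap of 162 bases and on the other strand, GENCODE M21 places Slc25a29, a carrier of basic amino acids. Slc25a29 had 3.2 to 7.51 CPM in HTB, against 2.8 to 4.18 CPM in LTB, a log2 fold change of 0.50 ± 0.24 (edgeR adjusted p = 0.186) that did not pass.

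RefSeq upstream windows of 250 bases on GRCm38.p6 were available for 36 of the 47 carriers, counting 3 of the genes just described, whose windows are shown because they belong to a called gene or to its divergent neighbour. Each is written 5′ to 3′ on the strand of its gene, and capitals mark the GC box GGGCGG on either strand.
Slc25a47, chr12:108850879-108851128, plus strand: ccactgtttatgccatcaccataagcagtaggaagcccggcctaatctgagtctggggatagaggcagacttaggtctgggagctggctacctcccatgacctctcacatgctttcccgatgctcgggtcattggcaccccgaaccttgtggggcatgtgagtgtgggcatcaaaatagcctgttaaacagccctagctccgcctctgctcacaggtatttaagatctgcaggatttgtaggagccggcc
Slc25a29, chr12:108835877-108836126, minus strand: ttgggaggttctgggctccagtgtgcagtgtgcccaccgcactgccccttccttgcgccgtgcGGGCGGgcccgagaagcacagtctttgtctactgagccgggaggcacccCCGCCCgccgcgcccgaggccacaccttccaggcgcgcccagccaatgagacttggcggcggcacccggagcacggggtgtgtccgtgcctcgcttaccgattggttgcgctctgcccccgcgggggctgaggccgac
Slc25a42, chr8:70212282-70212531, minus strand: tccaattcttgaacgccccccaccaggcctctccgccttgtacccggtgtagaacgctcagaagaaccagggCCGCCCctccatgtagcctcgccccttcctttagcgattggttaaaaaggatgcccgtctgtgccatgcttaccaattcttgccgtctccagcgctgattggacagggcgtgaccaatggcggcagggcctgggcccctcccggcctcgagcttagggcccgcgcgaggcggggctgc
RefSeq places the start of Slc25a47 inside the span that GENCODE gives it (chr12:108836046-108856815), so the 162-base gap holds for GENCODE alone. The Slc25a29 window had 2 GC boxes and a GC content of 71.2%, the Slc25a42 window 1 and 63.6%, and the Slc25a47 window none and 54.4%.

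Over the 36 carriers, whose windows had a median GC content of 58.6% against 52% for all genes, 25 (69.4%) held the GC box, against 62.1% of the tested genes with a window. The E-box CACGTG occurred in 7 (19.4%) against 9.57%, and ACGTG, the core of the hypoxia element, which every E-box also contains, in 11 (30.6%) against 24.5%. The cyclic AMP element TGACGTCA occurred in 2 (5.56%) against 2.89%, the NRF1 site (GCGCA, any base, GCGC) in 2 (5.56%) against 8.76%, and TATAAA in 2 (5.56%) against 8.32%. The 36 carriers include untested ones, while the motif shares beside them are of tested genes alone. Both carriers with TATAAA (Slc25a18 and Slc25a21) and 1 of the 2 with the NRF1 site (Slc25a31) were untested. The direct repeat of AGGTCA with any 1 base between its copies occurred in none, and in 0.0469% of tested genes. Both strands were read. A match is a match of letters and nothing was tested from it.

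Of the carriers like uncoupling proteins, Slc25a27 came closest to a call. Known mainly from brain, it had 43.7, 29.4, 47, 52.2 and 51.9 CPM in HTB, against 16.6, 36, 30.2, 28.4 and 33.9 CPM in LTB. HTB replicate 2 lay within the LTB range, and the other 4 HTB libraries were above every LTB library. The log2 fold change was 0.63 ± 0.21 (SE, n = 5 each, edgeR adjusted p = 0.078) with all libraries and 0.75 ± 0.18 (edgeR adjusted p = 0.0176) without HTB replicate 2. Its relatives Slc25a14 and Slc25a30 were at 0.15 ± 0.12 and -0.05 ± 0.10.

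The carriers of citrate, malate and oxoglutarate link the citrate cycle to the cytosol. None of the 3 tested was called with all libraries, and the values of Slc25a1 and Slc25a10 turned on HTB replicate 2. Slc25a1, the citrate exporter, had 201 CPM in that library, while the other HTB libraries had 63.3 to 75.2 CPM and LTB had 64.6 to 107 CPM. Slc25a10, the dicarboxylate carrier, had 59.7 CPM there, while the other HTB libraries had 22.6 to 27.3 CPM and LTB had 25.3 to 32.1 CPM. The log2 fold changes of Slc25a1 were 0.20 ± 0.32 with that library and -0.27 ± 0.13 without it, and those of Slc25a10 were 0.17 ± 0.26 and -0.20 ± 0.09, so both changed sign. Slc25a11, the oxoglutarate/malate carrier, was even at 72.8 to 82 CPM in HTB, against 75 to 89.9 CPM in LTB (-0.11 ± 0.06). Slc25a21, the oxodicarboxylate carrier, had 11 reads in all.

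Enzymes downstream of the exported citrate were also high in that library. Fasn, fatty acid synthase, had 1060 CPM in HTB replicate 2 and no less than 194 CPM in any HTB library, against 188 to 304 CPM in LTB. Of the 7 genes for the malate-aspartate shuttle and citrate export, none was called with or without HTB replicate 2. Their summed level was 950 to 1191 CPM in HTB outside replicate 2, 2427 CPM in replicate 2, and 990 to 1245 CPM in LTB. The 3 of smallest p were Got1 at -0.20 ± 0.12, Fasn at 0.68 ± 0.46 and Me1 at 0.54 ± 0.41, with edgeR adjusted p between 0.271 and 0.407. Without HTB replicate 2, Fasn was at -0.12 and Me1 at -0.17.

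The ATP-magnesium/phosphate carriers shift adenine nucleotides into or out of the matrix, and some of them, Slc25a24 and Slc25a23 included, are switched by calcium. Slc25a24 was the most abundant, with 201, 274, 248, 230 and 191 CPM in HTB and 155, 225, 224, 186 and 232 CPM in LTB, and a log2 fold change of 0.16 ± 0.13 (SE, n = 5 each, edgeR adjusted p = 0.439). Slc25a23 had 2.62, 24.2, 1.94, 2.68 and 3.04 CPM in HTB, against 1.93, 2.06, 1.97, 2.06 and 1.47 CPM in LTB. HTB replicate 2 was 9.11-fold above the mean of the other HTB libraries. The fold change of 1.86 ± 0.70 on the log2 scale (edgeR adjusted p = 0.108) became 0.44 ± 0.19 (edgeR adjusted p = 0.11) without that library, a more than 1.5-fold change of the value. Slc25a25 was at -0.16 ± 0.17, or -0.30 without HTB replicate 2, and Slc25a41 had 27 reads in all.

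Amino acid carriers were close to even, apart from Slc25a29, described above, at 0.50 ± 0.24 and not called. Slc25a12, the aspartate/glutamate carrier called aralar, had 38.2, 48.3, 36.5, 39 and 43 CPM in HTB and 39.6, 39.4, 40, 43.4 and 41 CPM in LTB. Slc25a13, the second such carrier, called citrin, had 29, 40.8, 36.4, 34.7 and 26.6 CPM in HTB and 29.2, 35.5, 37.4, 28.4 and 32.6 CPM in LTB. Both groups overlapped throughout, and the 95% intervals of the log2 fold change were -0.16 to 0.19 for Slc25a12 and -0.24 to 0.32 for Slc25a13. The branched-chain amino acid carrier Slc25a44 was at 0.01 ± 0.06, the ornithine carrier Slc25a15 at 0.00 ± 0.09, the glycine carrier Slc25a38 at -0.01 ± 0.10 and the glutamate carrier Slc25a22 at -0.12 ± 0.15, or -0.27 and still not called without HTB replicate 2. The second glutamate carrier Slc25a18 and the second ornithine carrier Slc25a2 had 14 and 78 reads in all.

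Of the 4 ratios, those other than mitoferrin 1 to mitoferrin 2 did not pass after adjustment. The log2 ratio of Slc25a4 to Slc25a5 averaged 0.16 ± 0.17 in HTB and -0.12 ± 0.17 in LTB (SD, n = 5 each), a difference of 0.28 (exact p = 0.0476, adjusted 0.0952). For Slc25a12 to Slc25a13 the averages were 0.30 ± 0.26 in HTB and 0.33 ± 0.21 in LTB (exact p = 0.865). The log2 ratio of Slc25a24 to Slc25a23 averaged 5.82 ± 1.35 in HTB and 6.73 ± 0.37 in LTB (exact permutation p = 0.135), and 3.50 in HTB replicate 2 was the lowest of all 10 libraries.

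**Figure D3:**
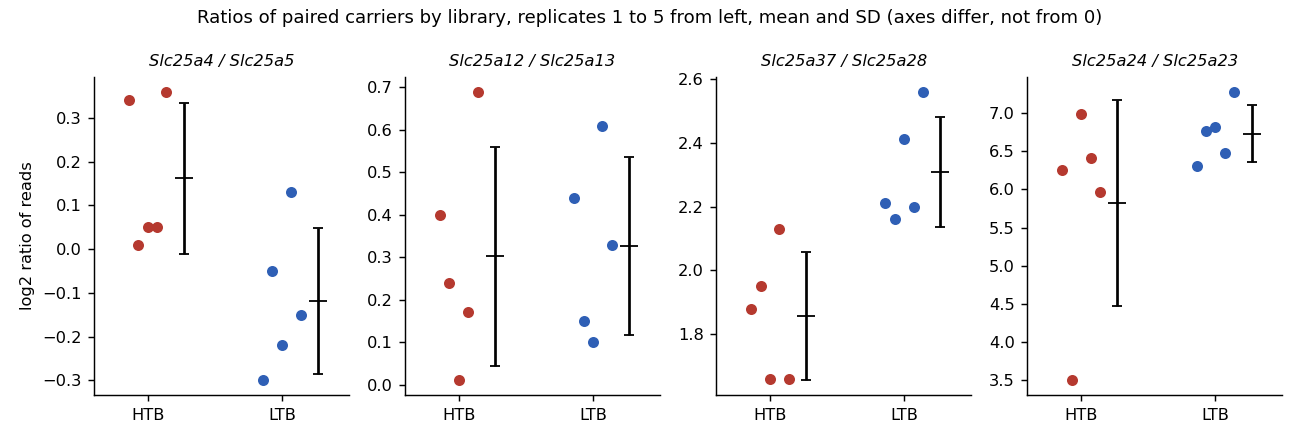
Log2 ratio of reads between the 2 carriers of each pair (y axes, which differ and do not start at 0), with 1 point per library, replicates 1 to 5 from left, and mean and SD beside them. The groups are apart for Slc25a37 over Slc25a28, where HTB averages 1.86 and LTB 2.31, and overlap for the other pairs.

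The glutathione carriers Slc25a39 and Slc25a40 were not called. Slc25a39 had 168, 181, 170, 153 and 150 CPM in HTB and 190, 152, 152, 187 and 181 CPM in LTB, at a log2 fold change of -0.07 ± 0.09. Slc25a40 had 22.2 to 32.4 CPM in HTB, against 24.4 to 29.1 CPM in LTB (0.13 ± 0.10). Without HTB replicate 2 it was at 0.22 and just missed a call (edgeR adjusted p = 0.0509). It was called higher without HTB replicate 2 and LTB replicate 1 together (edgeR adjusted p = 0.0221). Slc25a46, an outer membrane protein that acts in mitochondrial shape, varied little, with 71.6 to 75.5 CPM in HTB, against 64.9 to 76.3 CPM in LTB (0.07 ± 0.05).

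Of the remaining carriers with no substrate assigned here, Slc25a43 was at -0.31 ± 0.17, Slc25a45 at -0.19 ± 0.11, Slc25a35 at -0.03 ± 0.31 (-0.40 without HTB replicate 2) and Slc25a53 at 0.07 ± 0.17, each below 13 CPM in every library. Slc25a34, Slc25a48 and Slc25a54 had 31, 4 and 5 reads over all 10 libraries. Untested carriers reached at most 0.476 CPM in any library.

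Carrier levels in HTB replicate 2 differed in a patterned way from those in the rest of its group. It was the highest HTB library for 25 of the 39 carriers (64.1%), against 37.1% of all tested genes. Its median log2 difference from the mean of the other HTB libraries was 0.23 over the carriers and 0.00 over all tested genes. The largest excesses were 9.11-fold for Slc25a23, 2.95-fold for Slc25a1, 2.44-fold for Slc25a10 and 2.39-fold for Slc25a35. In this library the muscle genes Ckm, Acta1 and Myh4 stood at 1817, 4062 and 3236 CPM and the fat genes Cfd and Fabp4 at 2455 and 1924 CPM. The part of muscle and fat RNA in the carrier levels was not tested.

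**Figure D4:**
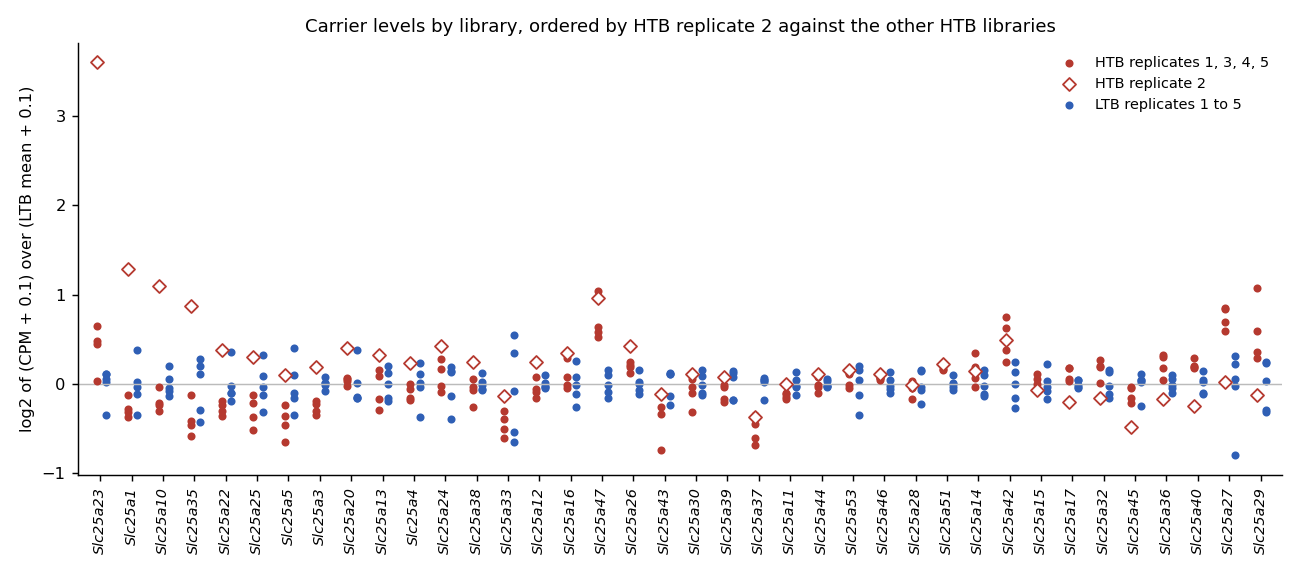
Level of 38 of the 39 tested carriers in each library relative to the LTB mean (y axis, log2 of CPM plus 0.1 over the LTB mean plus 0.1), with carriers ordered by how far HTB replicate 2 (open diamonds) lies above the other HTB libraries. The diamonds leave the other points at the left, from Slc25a23 through Slc25a1 and Slc25a10 to Slc25a35, and lie among or below them at the right.

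Fatty acid oxidation, the pathway that Slc25a20 feeds by carrying acylcarnitines inward, was described beside the carriers. Slc25a20 itself had 24 to 32.1 CPM in HTB, against 21.8 to 31.7 CPM in LTB, with a log2 fold change of 0.11 ± 0.12 (SE, n = 5 each, edgeR adjusted p = 0.578). Of 14 pathway genes, 4 were higher and none lower in HTB, against 3.91% higher and 7.51% lower of all tested genes. The median log2 fold change was 0.32 over the list and 0.02 over all genes, or 0.18 and -0.01 without HTB replicate 2. Cpt1a, which makes acylcarnitines at the outer membrane, had 116 to 155 CPM in HTB, against 66.8 to 113 CPM in LTB (0.59 ± 0.15, edgeR adjusted p = 0.0275). Etfdh, which passes electrons to ubiquinone, had 50.2 to 56.8 CPM in HTB, against 35.5 to 46.7 CPM in LTB (0.35 ± 0.08, edgeR adjusted p = 0.0188). Acadm, the medium-chain acyl-CoA dehydrogenase, had 66.6 to 79.3 CPM in HTB, against 44.3 to 64.3 CPM in LTB (0.35 ± 0.10, edgeR adjusted p = 0.0394). Cpt1c, a relative of Cpt1a known mainly from brain, completed the count at 0.39 ± 0.11. The 4 calls were sensitive to single libraries. Etfdh was lost without HTB replicate 4 (adjusted p = 0.0504 in edgeR), Cpt1a without any HTB library but replicate 2 or without LTB replicate 2 or 3, Acadm without any HTB library but replicate 2 or without LTB replicate 3 or 4, and Cpt1c without any library but HTB replicate 2, with adjusted p values of up to 0.104 and no change of sign.

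The 14 genes summed to 931 to 970 CPM in HTB outside replicate 2, 1231 CPM in replicate 2, and 798 to 869 CPM in LTB. Each HTB library was above each LTB library, and the same 4 genes were called higher without replicate 2, when 9.77% of all genes were. Adipocyte markers outside replicate 2, at 20.9 to 24.8 CPM in HTB, lay within the 10.7 to 35.3 CPM of LTB. Of these, Fabp4 alone had 20.7 to 24.2 CPM in HTB outside replicate 2 and 10.4 to 23.6 CPM in LTB. The part of fat cells in the sums of the pathway was not tested.

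In the citrate cycle, 1 of 18 genes was called with all libraries, against 11.4% of all tested genes. Suclg2, a succinyl-CoA synthetase subunit, had 155 to 193 CPM in HTB, against 115 to 142 CPM in LTB, a log2 fold change of 0.42 ± 0.08 (SE, n = 5 each, edgeR adjusted p = 0.0122). Sdha, a subunit of succinate dehydrogenase, was at 0.19 ± 0.10 and Suclg1, the partner of Suclg2, at 0.23 ± 0.13, and neither passed. Once HTB replicate 2 was left out, Suclg2 was joined by Cs, citrate synthase, at -0.39 (edgeR adjusted p = 0.00703) and Sdhb, another succinate dehydrogenase subunit, at -0.28 (edgeR adjusted p = 0.0219), both lower in HTB as were 12.7% of all genes. Of 5 genes of the mitochondrial folate cycle, which the folate carrier Slc25a32 supplies, 2 were lower in HTB with and without that library. Shmt2, which moves a carbon unit from serine to folate, had 76.1 to 127 CPM in HTB, against 125 to 165 CPM in LTB (-0.46 ± 0.13, edgeR adjusted p = 0.0423). Mthfd1l, which makes formate, had 91.8 to 100 CPM in HTB, against 110 to 155 CPM in LTB (-0.38 ± 0.09, edgeR adjusted p = 0.0239). Mthfd2l did not pass at 0.27 ± 0.11. Leaving out HTB replicate 3, 4 or 5 ended the call of Mthfd1l (adjusted p of up to 0.0639), and leaving out HTB replicate 1, 3 or 4 or LTB replicate 1, 3, 4 or 5 that of Shmt2 (adjusted p of up to 0.1). Without the filter on low counts, Shmt2 and Cpt1c were not called.

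**Figure D5:**
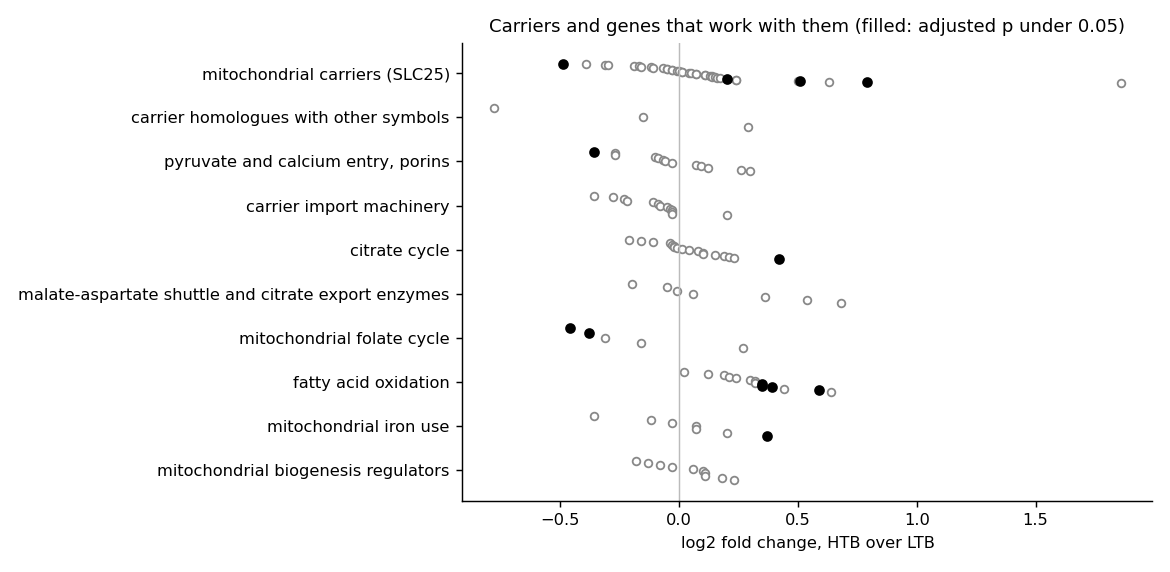
Log2 fold change of HTB over LTB (x axis) for each tested carrier (top row) and each tested gene of 9 related lists (other rows), with 1 point per gene and filled points for an edgeR adjusted p under 0.05. Filled points lie to the right for fatty acid oxidation, where 4 of 14 genes were called, and to the left for the folate cycle, where 2 of 5 were.

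In the authors' deposited table, 6 of the 47 carriers (12.8%) had a q under 0.05, against 14.5% of its genes: the 4 called here with Slc25a23 and Slc25a27.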

How the data were processed

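Values deposited by the authors are estimated counts for each gene, without depth scaling, on GRCm38 (mm10) per the submitters' processing notes. For the aligner, counter and strand setting, the sources used here give nothing. Per the labels' protocols, a SMARTer mRNA kit was used for the libraries. Of the deposited estimated counts, 86.4% were whole (tolerance 1e-09) and the others were rounded by at most 0.5. The line that names no gene was dropped. The same deposited table holds the authors' group means, log2 fold change and q-value. No header names the unit of the means. They were read as RPKM in the authors' table because 98.7% of 9060 genes gave the same implied length in both groups within 5%. The authors' log2 values were positive where HTB was higher in 100% of their calls.

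All 10 libraries were fitted with edgeR 4.0.16 in R 4.3.3 (TMM factors of 0.9747 to 1.029, filterByExpr, quasi-likelihood test, group only, Benjamini-Hochberg over 13469 genes, adjusted p under 0.05). CPM used TMM-scaled totals, and ratios added 0.5 to each count. On simulated counts of HTB against LTB over 13469 genes the fit recovered 26% of the 1.5-fold changes, 78% of the 2-fold, 98% of the 4-fold and 100% of the 8-fold, with 4.43% false calls. The simulation drew every library with the same fitted spread at a given level, and none was set apart as HTB replicate 2 was. These rates may therefore not hold for the measured libraries. Replicates of each group differed by more than sampling noise. The number of libraries and counting error limit precision, and reads carry no molecular identifiers.

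The carriers and lists were chosen with earlier results of these data known, so no p adjusted over a list and no set test is given. Adjustment within a set was made for the 4 carrier ratios alone. Named with values in every library are the called carriers, the 5 of highest CPM and those of the 4 ratios. Of each related list the 3 of smallest p are named. Slc25a27, Cpt1c, Cs, Sdhb and the marker genes were named after their values were seen. Alternatives were DESeq2 size factors, upper-quartile factors, the DESeq2 Wald test (1.42.0), limma voom (3.58.1), other filters and thresholds, a replicate block, and leaving out libraries. For the related lists and their named genes they were added after seeing the data. The values of 1 tested carrier are not reported here by name, though counts and sums include it, except the count of libraries set apart. Gene spans come from GENCODE M21, and the strand in the deposited table differed from it for 8 carriers.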

Additional observations from a re-analysis of the deposited data

Results flagged for a closer look

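In 14 of 88 groups of 5 libraries, the highest or lowest value was separated from the others by more than 0.71 of the group's range, which chance gives in about 1 in 20 groups. HTB replicate 2 was the library set apart in 9 of them. It was the highest HTB library for Slc25a1 (201 CPM), Slc25a3 (506 CPM), Slc25a10 (59.7 CPM), Slc25a20 (32.1 CPM), Slc25a22 (44.5 CPM), Slc25a23 (24.2 CPM) and Slc25a35 (3.98 CPM), and for the sum of all carriers (2928 CPM). It was the lowest for Slc25a40 (22.2 CPM).

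LTB replicate 1 was the highest LTB library for Slc25a20 (31.7 CPM) and Slc25a22 (43.8 CPM). LTB replicate 2 was the lowest for Slc25a37 (167 CPM), still above each HTB library. LTB replicate 4 was the lowest for Slc25a45 (9.93 CPM) and LTB replicate 5 for Slc25a23 (1.47 CPM).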

How the results depend on the processing

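Of 702 alternative log2 fold changes in 18 settings, 630 kept direction and side of the threshold, 19 lost a call, 6 gained one and 47 changed sign. The 630 include Slc25a23 in the DESeq2 Wald test, which gave it no adjusted p. The cause of the changes was not tested, except that leaving out libraries leaves fewer samples. Carriers called higher numbered 1 to 4 with a library left out, 0 at an adjusted p of 0.01 and 0 with the replicate block. Without HTB replicate 2 and LTB replicate 1 together they numbered 4 (Slc25a27, Slc25a40, Slc25a47 and Slc25a51), and Slc25a42 was not called. Carriers called lower numbered 1 to 2 with a library left out, and 3 without HTB replicate 2 and LTB replicate 1 together (Slc25a1, Slc25a3 and Slc25a37). Over all genes, those higher numbered 177 to 1324 and those lower 559 to 1716 with a library left out, the upper ends being without HTB replicate 2. Both those libraries left out together gave 1245 higher and 1663 lower. The DESeq2 Wald test gave 1097 higher, the replicate block 221, an adjusted p of 0.1 gave 1127, and 0.01 gave 58 higher and 330 lower.

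Replicate numbers did not pair the libraries: deviations of same-numbered libraries correlated at 0.00701 to 0.106 over 5 pairs, and 1 HTB library correlated best with its own number. With the block, Slc25a37 was the 1 carrier called (2.56%, among 7.21% of all genes), Slc25a47 had an adjusted p of 0.0623 in edgeR, the related genes Mthfd1l, Shmt2 and Cpt1c lost their calls, and the paired ratio of Slc25a37 to Slc25a28 was -0.45 (adjusted p = 0.25 by sign flips of 5 pairs in an exact permutation test). For this ratio all 5 pair differences were negative, which gives the smallest p that sign flips of 5 pairs allow. The paired test could therefore not pass 0.05 for this ratio. With a library left out this ratio was -0.52 to -0.39, and in 9 of 10 cases the adjusted p was 0.0635, what the smallest exact p of 5 against 4 libraries adjusts to. Slc25a4 to Slc25a5 was 0.23 to 0.34 with a library left out, and 0.34 (exact permutation, adjusted p = 0.0317) without LTB replicate 4. Slc25a12 to Slc25a13 was -0.12 to 0.05 with a library left out.

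Signs changed for carriers near 0, and for Slc25a1 and Slc25a10 when HTB replicate 2 was left out. Without HTB replicate 2 and LTB replicate 1 together, the log2 fold change was -0.35 for Slc25a1, -0.14 for Slc25a10, -0.06 for Slc25a12, -0.08 for Slc25a13, 0.08 for Slc25a15 and -0.03 for Slc25a44 and Slc25a53. Slc25a15 was 0.00 with DESeq2 size factors, upper-quartile factors, voom or the block and 0.01 with the DESeq2 Wald test or no filter, and Slc25a38 was 0.00 with no filter. With a library left out the ranges were -0.27 to 0.32 for Slc25a1, -0.11 to 0.03 for Slc25a4, -0.20 to 0.27 for Slc25a10, -0.05 to 0.05 for Slc25a12, -0.04 to 0.11 for Slc25a13, -0.04 to 0.06 for Slc25a15, -0.09 to 0.01 for Slc25a30, -0.40 to 0.08 for Slc25a35, -0.08 to 0.05 for Slc25a38, -0.02 to 0.03 for Slc25a44 and -0.01 to 0.13 for Slc25a53. The related gene Fasn was at -0.20 and Me1 at -0.14 with both libraries left out together, and at -0.12 to 0.85 and -0.17 to 0.69 with 1 left out.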

Other observations

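The remaining lists of mitochondrial genes outside the family each held at most 1 call with all libraries, when 11.4% of all tested genes were called. Without HTB replicate 2 the share of all genes was 22.4%. Mcub, the inhibitory partner of the calcium uniporter, had 40.5 to 50.2 CPM in HTB, against 59.4 to 62.4 CPM in LTB, a log2 fold change of -0.36 ± 0.06 (SE, n = 5 each, edgeR adjusted p = 0.00853), and was the 1 call among 13 genes for pyruvate entry, calcium entry and porins. Vdac2, a porin, and Smdt1, a regulator of the uniporter, were both at -0.27 and did not pass (edgeR adjusted p = 0.092 and 0.133). Without HTB replicate 2 the list had 1 gene higher and 2 lower.

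The 13 genes that import carriers into the inner membrane summed to 622 to 799 CPM in HTB, against 665 to 967 CPM in LTB, and none passed with all libraries. Timm8a1, a chaperone of the space between the membranes, was at -0.36 ± 0.16, the receptor Tomm22 at -0.22 ± 0.10, and Agk, a subunit of the carrier translocase, at 0.20 ± 0.09. Without HTB replicate 2, 1 of the 13 was called lower.

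Carrier relatives with other symbols did not pass either. Ucp2, an inner membrane carrier abundant in immune cells, had 63.3 to 115 CPM in HTB, against 110 to 300 CPM in LTB (-0.78 ± 0.27, edgeR adjusted p = 0.0836), beside T cell markers of 16.7 to 45 CPM in HTB, against 45 to 95.6 CPM in LTB outside replicate 1 and 212 CPM in LTB replicate 1, whose part in it was not tested. Mtch1, an outer membrane relative, had 207 to 236 CPM in HTB, against 155 to 216 CPM in LTB (0.29 ± 0.10, edgeR adjusted p = 0.0769). Ucp3, the relative of skeletal muscle, had 8.88 CPM in HTB replicate 2, the library with high muscle markers. The other HTB libraries had 0 to 0.0729 CPM, against 0.0389 to 0.189 CPM in LTB. Mtch2, the other outer membrane relative, was at -0.15 ± 0.10, and it alone of the 3 tested was called without HTB replicate 2 (-0.24, edgeR adjusted p = 0.0283). Of 10 tested regulators of mitochondrial biogenesis none passed with all libraries. Gabpa and Tfb2m, at 0.23 ± 0.10 and 0.18 ± 0.09, and Gabpb1, at -0.18 ± 0.09, had the smallest p, and Gabpa was called without HTB replicate 2 (0.29, edgeR adjusted p = 0.0422).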
